A study of Mus musculus with 24 samples.

Results

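The CREB and C/EBP factors are transcription factors of the basic leucine zipper class, which bind DNA as dimers through a basic region next to a zipper of leucines. CREB proteins bind the cAMP response element and, when phosphorylated, recruit the coactivators CBP and p300. C/EBP proteins bind related palindromes and are known for their roles in acute-phase, inflammatory and injury responses. NFIL3, also called E4BP4, is a repressor of the same class whose binding sites resemble and partly coincide with the sites of both families, and in dorsal root ganglion (DRG) neurons it has been described as a repressor of CREB target genes. The 8 genes described here were *Creb1*, *Crem*, *Atf1* and *Creb3* of the CREB side and *Cebpa*, *Cebpb*, *Cebpd* and *Cebpg* of the C/EBP side. They were taken as every non-control probe whose gene name on the array equals one of these symbols, which gave 22 of 41174 probes and 8 of 27398 gene names.

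RNA came from L4 and L5 DRGs of adult male C57BL/6J mice in which the left sciatic nerve had been cut and its ends sutured together. *Nfil3* knockout (KO) mice were *Nfil3*-/-, made by crossing a floxed allele with mice that express Cre under a CMV promoter, so that the gene is deleted in every tissue and not in neurons alone, and wildtype (WT) mice were their *Nfil3*+/+ littermates. The 6 groups were KO and WT at day 2, KO and WT at day 5, and KO and WT control DRGs taken from the side without injury, with 4 samples each on 12 Agilent arrays of 3 slides. The controls are described as contralateral, so the mice they came from had a lesion on the other side, and the labels do not tie a control to the day or to a lesioned sample. All values below are log2 of the normalized intensity of a probe, and all differences are on the log2 scale. The brightest probe stands for a gene unless stated, and levels of different probes cannot be set against each other.

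Probes that lie within the leucine zipper coding part are shown for 6 of the 8 genes, because they carry what the factors share. Each is printed 5′ to 3′ in the sense direction, with capitals on leucine codons that stand 7 codons apart in the frame without a stop codon.
*Creb1*: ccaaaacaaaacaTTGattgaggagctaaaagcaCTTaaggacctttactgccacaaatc
*Atf1*: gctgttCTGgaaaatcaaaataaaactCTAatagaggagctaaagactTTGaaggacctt
*Creb3*: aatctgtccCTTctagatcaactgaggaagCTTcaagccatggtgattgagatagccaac
*Cebpa*: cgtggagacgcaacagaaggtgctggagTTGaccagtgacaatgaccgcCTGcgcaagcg
*Cebpb*: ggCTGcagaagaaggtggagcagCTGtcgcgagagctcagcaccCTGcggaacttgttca
*Cebpg*: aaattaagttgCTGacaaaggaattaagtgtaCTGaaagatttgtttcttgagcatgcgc
In mm9 these probes lie at chr1:64643886-64643945 (*Creb1*, plus strand), chr15:100090310-100090369 (*Atf1*, plus), chr4:43578403-43579046 (*Creb3*, plus, a span wider than its 60 bases), chr7:35905361-35905420 (*Cebpa*, plus), chr2:167515309-167515368 (*Cebpb*, plus) and chr7:35835477-35835536 (*Cebpg*, minus). The *Atf1* and *Cebpb* probes held 3 such leucine codons in a row, as did 1.13% of all 60-base probes, and the other 4 probes held 2, where 16.3% of all probes held 2 or more. The zipper probes of *Creb1*, *Crem* and *Atf1* resemble each other. The *Creb1* probe matched a *Crem* probe at 44 of 57 aligned bases (77.2%) and the *Atf1* probe at 35 of 46 (76.1%), and these *Crem* and *Atf1* probes matched at 31 of 43 (72.1%). How much of the signal of these 3 probes comes from a relative was not tested. No other of the 204 probe pairs between members exceeded 31 identical bases, and the brightest probes of *Creb1*, *Crem* and *Atf1* are different, less similar probes.

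*Crem* was left out of the promoter search, and *Cebpd* had no promoter window. Promoter windows of 250 bases before the start were taken from RefSeq (GRCm38.p6) for the other 6 of the 8 genes. They were searched on both strands for the cAMP response element TGACGTCA, for its core TGACG (which also lies within it), for the C/EBP palindrome TTGCGCAA, for the NFIL3 sites TTACGTAA and TTATGTAA and for the C/EBP-ATF element TGATGCAA. Only the core was found, in *Atf1* and *Cebpb*, whose windows are shown because they hold it, with its matches on either strand in capitals.
*Cebpb*, chr2:167688665-167688914, plus strand: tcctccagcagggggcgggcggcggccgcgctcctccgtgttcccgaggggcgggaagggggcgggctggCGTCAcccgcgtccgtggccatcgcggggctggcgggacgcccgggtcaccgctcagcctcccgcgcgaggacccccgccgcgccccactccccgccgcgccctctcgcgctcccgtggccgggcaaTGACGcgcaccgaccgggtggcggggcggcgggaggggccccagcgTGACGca
*Atf1*, chr15:100227609-100227858, plus strand: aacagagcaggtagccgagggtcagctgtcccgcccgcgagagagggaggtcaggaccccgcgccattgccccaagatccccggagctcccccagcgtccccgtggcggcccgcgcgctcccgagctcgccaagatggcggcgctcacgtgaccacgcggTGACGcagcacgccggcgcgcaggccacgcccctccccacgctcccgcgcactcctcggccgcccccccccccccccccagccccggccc
The *Cebpb* window held the core 3 times, beginning 180, 53 and 7 bases before the start, and the *Atf1* window held it once, 90 bases before the start. Of 32851 windows of this length, 17.8% held the core, 1.55% the full element, 0.164% the C/EBP palindrome, 0.113% and 0.819% the NFIL3 sites and 0.791% the C/EBP-ATF element.

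The deleted gene and the labels were checked first. *Nfil3* measured 8.44 to 9.01 in the 4 WT control samples, 10.34 to 10.76 at day 2 and 10.64 to 11.09 at day 5, while the 12 KO samples ranged from 2.82 to 7.59. Both *Nfil3* probes were well above background in 12 of 12 WT samples and in 5 of 12 KO samples, 4 of which shared an array with a WT sample, as did 2 of the other 7. The fifth is KO control replicate 4, with the highest KO value (7.59), and for this sample the title gives control but another label field gives day 5. It was kept as control. In 4 of the 8 control samples the other channel of the array held a lesioned sample, and there *Sprr1a*, a gene strongly induced by axotomy, measured 8.15 to 11.68 against 5.48 to 6.12 in the other 4 controls. For the 8 factors these 2 sets of controls differed by -0.11 (*Cebpg*) to 0.17 (*Cebpa*), and values without the 4 controls are given where they change a call. Between 54.5% and 72.3% of probes were well above background in a sample. The labels call the tissue DRG neurons, but all 6 Schwann cell, 4 satellite glia and 7 measured macrophage markers were well above background in all 24 samples, as were all 12 sensory neuron markers, so the samples hold the RNA of whole ganglia.

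By brightest probe, levels of 7 of the 8 factors changed with the lesion, all upward, and *Atf1* was the exception. In the limma F test of day 2 and day 5 against control, averaged over WT and KO, 7 members passed an adjusted p of 0.05, against 26.2% of all genes. By probe, 17 of 22 passed, against 25.2% of all probes. With the probes of a gene averaged, *Cebpa* and not *Atf1* was the member that did not pass, and with the slide as a block all 8 passed. At day 2, 6 members were higher than control (9.48% of genes) and at day 5, 7 were (10.2%), with 6 higher at both days (6.96%). The median difference of the 8 members was 0.46 at day 2 and 0.50 at day 5, against -0.02 and -0.03 over all genes. In 4 members, *Crem*, *Creb3*, *Cebpb* and *Cebpd*, all 16 lesioned samples lay above all 8 controls, which held for 2.96% of genes. On each of the 3 slides taken alone, the lesioned samples of all 8 members had a higher mean than the controls, by between 0.15 (*Atf1*) and 1.59 (*Crem*). In whole ganglia, a higher level per cell and more cells of a type that express the gene cannot be told apart.

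**Figure D1:**
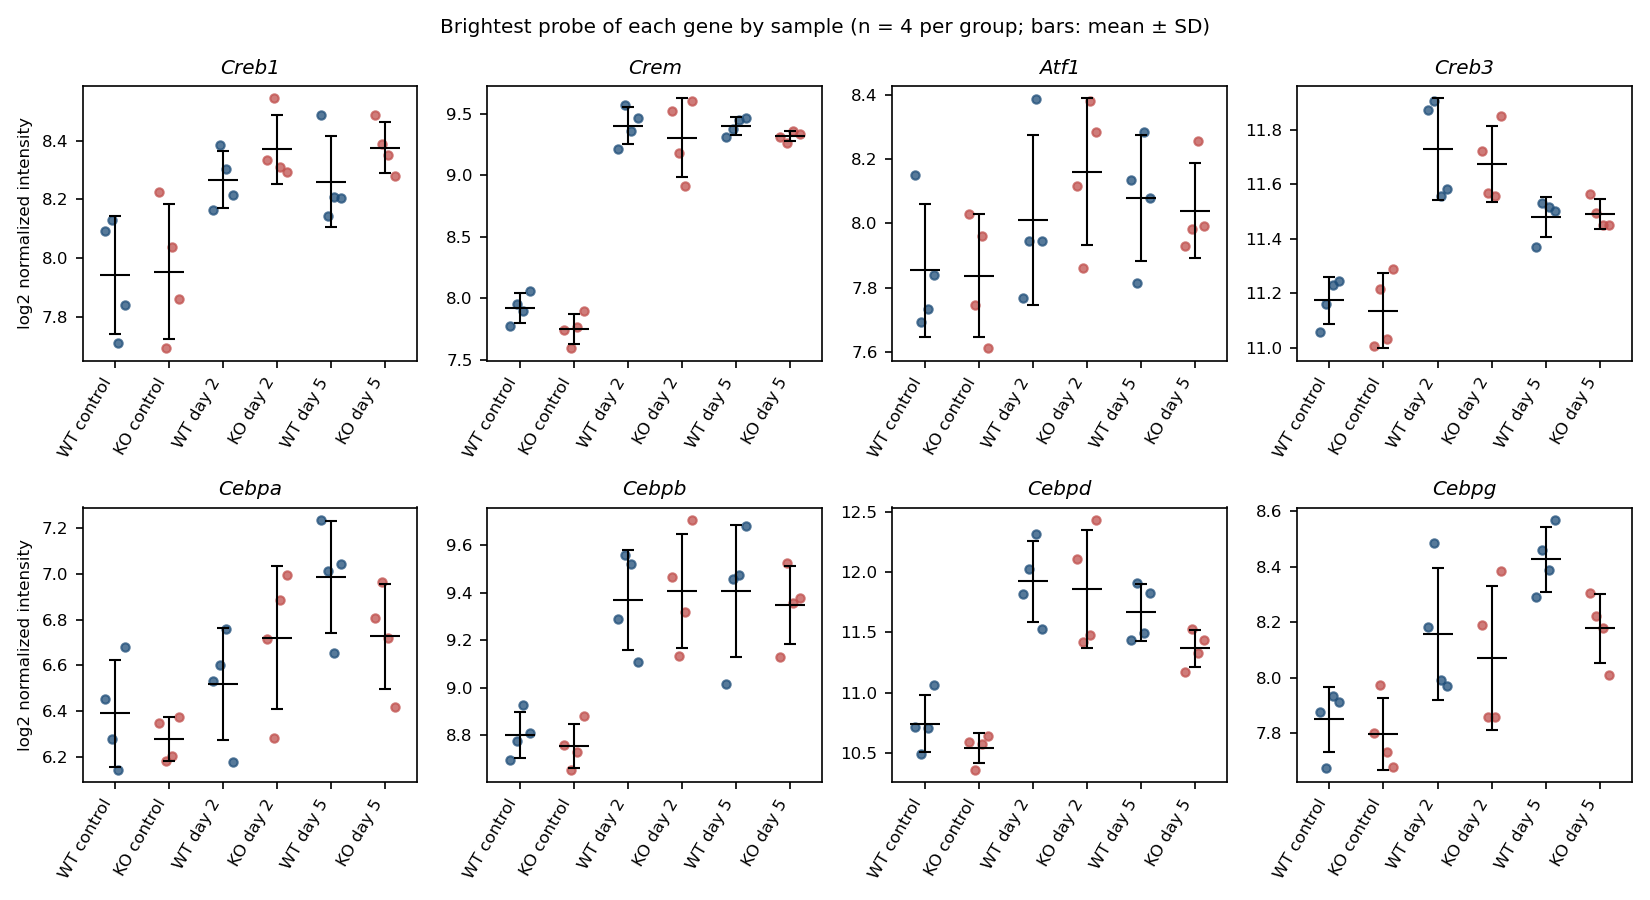
Log2 normalized intensity of the brightest probe of each of the 8 genes in all 24 samples, with WT samples in blue and KO samples in red. Horizontal bars with whiskers are the mean ± SD of 4 samples, and each panel has its own y axis that does not start at 0. The lesioned samples of *Crem* (8.91 to 9.61) stand clear of the controls (7.60 to 8.06), while those of *Atf1* overlap them.

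*Crem* encodes the cAMP response element modulator, whose transcripts give activators as well as the short repressor ICER. It rose most among the 8 genes. In the control DRGs it measured 7.78, 7.96, 7.90 and 8.06 in WT and 7.75, 7.60, 7.77 and 7.90 in KO. At day 2 it measured 9.22, 9.57, 9.36 and 9.46 in WT and 9.52, 9.18, 8.91 and 9.61 in KO. At day 5 it measured 9.31, 9.38, 9.45 and 9.47 in WT and 9.31, 9.26, 9.36 and 9.34 in KO. The lowest lesioned sample thus lay far above the highest control, and the day 5 samples spread less than those of KO at day 2 (SD 0.32). The difference from control was 1.51 (SE 0.09) at day 2, a 2.86-fold change, with a limma adjusted p of 9.07e-11, and 1.52 (SE 0.09) at day 5, 2.87-fold, with an adjusted p of 5.63e-11. It ranked 228 of 27398 genes by size of rise at day 2 and 337 at day 5. On the 3 slides taken alone, lesioned minus control samples gave 1.43 to 1.59.

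The positions of the *Crem* probes show where the rise was measured, which is not the whole gene. Together with the brightest, 5 probes rose, with differences of 1.29 to 1.67 at day 2 and 1.20 to 1.71 at day 5. These 5 lie close together in the downstream part of the gene. The sixth probe, designed on another transcript variant, lies upstream of them in the direction of transcription and rose above the background mark in 1 sample of 24, for which reason it has no fold change here and is not drawn in the plot of probes. Whether the signal belongs to full-length *Crem* or to ICER transcripts cannot be told from these probes.

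*Creb1* encodes CREB itself, whose activity is set mostly by phosphorylation, which the arrays do not measure. Its brightest probe (mm9 chr1:64648229-64648288, plus strand, spotted 10 times per array) ranged from 7.69 to 8.23 in the controls, from 8.17 to 8.54 at day 2 and from 8.14 to 8.49 at day 5. A single control sample, KO replicate 1 at 8.23, reached into the range of the lesioned samples of both days. The difference was 0.37 (SE 0.08) at both days, and limma gave adjusted p-values of 0.00267 and 0.00223. The other *Creb1* probes rose too, the zipper probe printed above by 0.49 and 0.31 and the remaining probe by 0.58 and 0.67. Within slides the difference was 0.25, 0.35 and 0.49.

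*Atf1*, the closest relative of *Creb1* and *Crem* and a partner in their dimers, did not pass with its brightest probe (mm9 chr15:100091253-100091312, plus strand). This probe ranged from 7.61 to 8.15 in control, from 7.77 to 8.39 at day 2 and from 7.82 to 8.28 at day 5, so that the groups overlapped widely. The differences were 0.24 (95% CI 0.02 to 0.46) at day 2 and 0.21 (-0.01 to 0.43) at day 5, for which limma gave adjusted p-values of 0.123 and 0.181. Its other 2 probes passed in the F test (adjusted p of 0.00254 and 0.0183), with differences of 0.44 and 0.48 at day 2 and 0.25 and 0.18 at day 5. The brightest probe also moved with the array design. Its lesioned minus control value was 0.04 in the Cy3 channel and 0.41 in Cy5, and with the slide as a block its day 2 difference was 0.30 with an adjusted p of 0.0201.

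*Creb3*, also called Luman, encodes a factor held at the membrane of the endoplasmic reticulum and released by cleavage, and it has been studied in axons of sensory neurons. Its brightest probe lies at mm9 chr4:43579839-43579898, plus strand. In control DRGs it measured 11.06, 11.16, 11.23 and 11.24 in WT and 11.01, 11.22, 11.03 and 11.29 in KO. At day 2 it measured 11.87, 11.91, 11.56 and 11.58 in WT and 11.72, 11.57, 11.56 and 11.85 in KO. At day 5 it measured 11.37, 11.53, 11.52 and 11.50 in WT and 11.57, 11.50, 11.45 and 11.45 in KO. All lesioned samples lay above all controls, the lowest at 11.37 and the highest control at 11.29. The mean difference from control was 0.55 (SE 0.07, limma adjusted p = 6.46e-06) at day 2 and 0.33 (SE 0.07, adjusted p = 0.00107) at day 5. The second *Creb3* probe, printed above, gave 0.53 and 0.44. The values at day 5 were lower than at day 2 by 0.22, which did not pass over all probes (adjusted p = 0.0981) but passed with other background corrections, as described in the closing section.

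*Cebpd* encodes C/EBP delta, an acute-phase factor induced by cytokines through STAT3. It has 1 probe (mm9 chr16:15888459-15888518, plus strand) and rose most among the C/EBP genes. In control DRGs it measured 10.71, 10.49, 10.703 and 11.06 in WT and 10.59, 10.36, 10.57 and 10.64 in KO. At day 2 it measured 11.82, 12.03, 12.32 and 11.53 in WT and 12.11, 11.42, 11.48 and 12.44 in KO. At day 5 it measured 11.43, 11.92, 11.49 and 11.83 in WT and 11.17, 11.53, 11.33 and 11.44 in KO. No lesioned sample overlapped the controls, although the lowest, a KO sample at day 5, lay just above the highest, WT control replicate 4. The rise was 1.25 (SE 0.14) at day 2, 2.39-fold, with a limma adjusted p of 2.23e-06, and 0.88 (SE 0.14) at day 5, 1.84-fold, with an adjusted p of 0.000113. Day 5 was lower than day 2 by 0.38 (95% CI 0.08 to 0.68), with an adjusted p of 0.193.

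*Cebpb* encodes C/EBP beta, which dimerizes with C/EBP delta and with CREB-related factors. Its brightest probe lies at mm9 chr2:167515847-167515905, plus strand. In control DRGs it measured 8.70, 8.78, 8.93 and 8.81 in WT and 8.76, 8.66, 8.73 and 8.88 in KO. At day 2 it measured 9.29, 9.56, 9.52 and 9.11 in WT and 9.47, 9.13, 9.32 and 9.70 in KO. At day 5 it measured 9.02, 9.46, 9.47 and 9.68 in WT and 9.13, 9.52, 9.35 and 9.38 in KO. The groups did not overlap, with WT day 5 replicate 1 (9.02) the lowest lesioned sample and WT control replicate 3 (8.93) the highest control. The rise was 0.61 (SE 0.10) at day 2 and 0.60 (SE 0.10) at day 5, and limma gave adjusted p-values of 0.000138 and 0.000131. Its zipper probe rose by 0.36 and 0.54, with 23 of 24 samples well above background.

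*Cebpa* encodes C/EBP alpha, known from the differentiation of myeloid cells, fat cells and hepatocytes. Its brightest probe (mm9 chr7:35906517-35906576, plus strand) ranged from 6.14 to 6.68 in control, from 6.18 to 6.996 at day 2 and from 6.42 to 7.24 at day 5. The day 2 samples spanned almost the whole control range, and the difference of 0.29 (SE 0.12) did not pass (limma adjusted p = 0.0976). At day 5 the difference was 0.52 (SE 0.12) and passed (adjusted p = 0.0024), but not with its 2 probes averaged (0.49, adjusted p = 0.083). The zipper probe of *Cebpa* cleared the background mark in 11 of 24 samples and did not pass at either day.

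*Cebpg* encodes C/EBP gamma, which lacks a strong activation domain of its own and pairs with other C/EBP proteins and with ATF4. Its brightest probe is the zipper probe printed above and ranged from 7.68 to 7.97 in control, from 7.86 to 8.49 at day 2 and from 8.01 to 8.57 at day 5. All 8 samples of day 5 lay above all controls, whereas 3 samples of day 2, KO replicates 2 and 3 at 7.86 and WT replicate 4 at 7.97, lay within the control range. The difference was 0.29 (SE 0.09, limma adjusted p = 0.0262) at day 2 and 0.48 (SE 0.09, adjusted p = 0.000502) at day 5. The day 2 call was lost when any of 6 single samples was left out, KO day 2 replicate 1 or 4, WT day 2 replicate 2, WT control replicate 2 or KO control replicate 3 or 4, with adjusted p-values of 0.0506 to 0.0628. Without the 4 controls that shared an array with a lesioned sample its day 2 difference was 0.24 (adjusted p = 0.225), and 6 in place of 7 members passed the F test. Its other 2 probes did not pass in the F test (adjusted p of 0.14 and 0.142), the dimmest had a day 2 difference of -0.20, and with all 3 averaged the day 2 difference was 0.08 (adjusted p = 0.548).

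**Figure D2:**
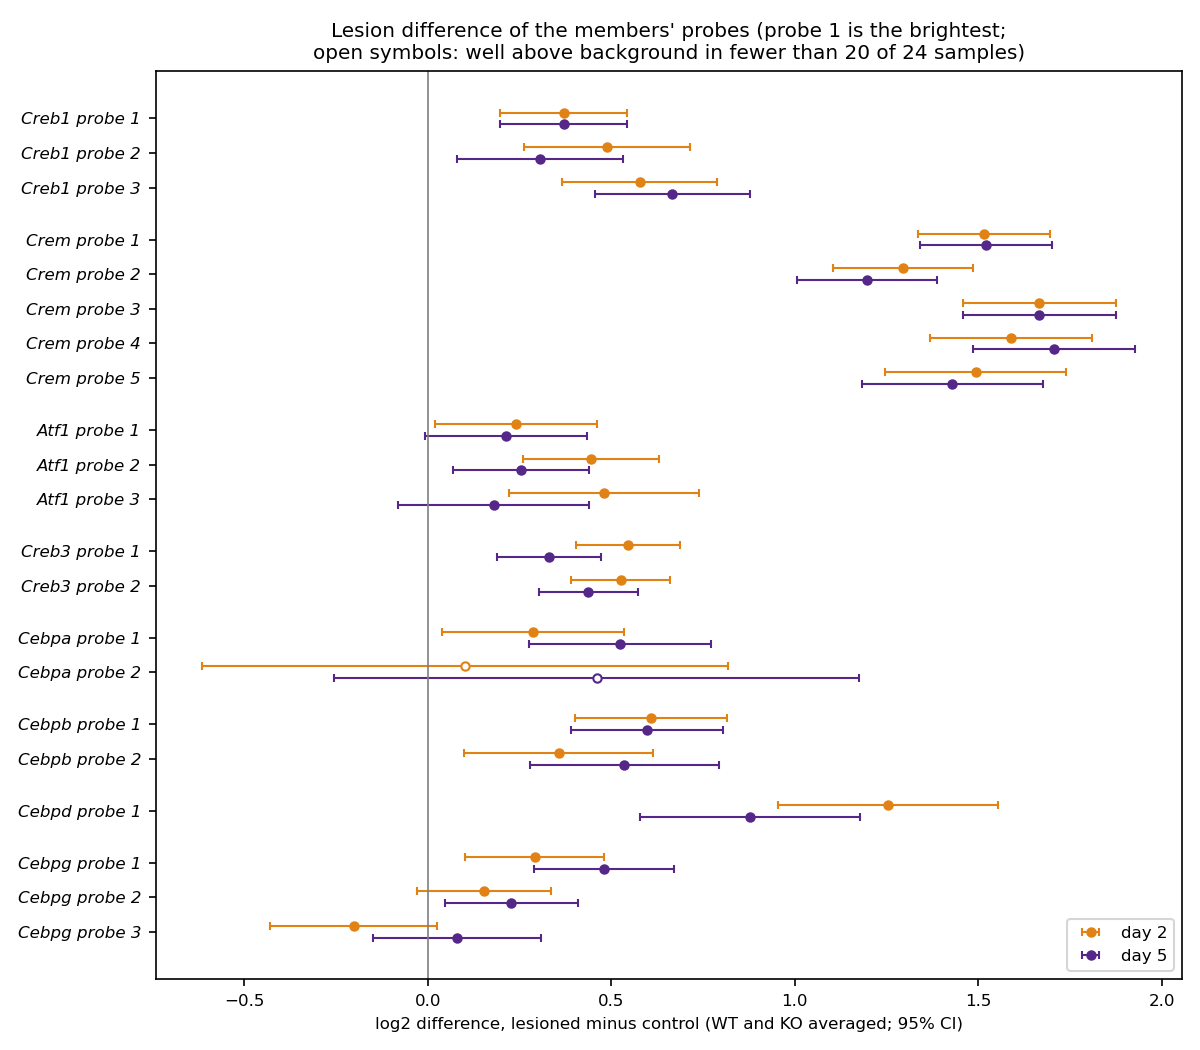
Log2 difference from control at day 2 (orange) and day 5 (purple) for all probes of the 8 genes but the sixth *Crem* probe, averaged over WT and KO, with 95% CI. The 5 *Crem* probes lie between 1.20 and 1.71, and the second *Cebpa* probe is drawn open because it was well above background in fewer than 20 samples.

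Day 5 and day 2 were then compared directly. None of the 8 members passed in limma at an adjusted p of 0.05 (0, against 3.28% of genes). The smallest unadjusted p-values were those of *Creb3* (0.00485) and *Cebpd* (0.0167), both lower at day 5. *Cebpa* and *Cebpg* were higher at day 5 by 0.24 and 0.19, with 95% CI of -0.01 to 0.49 and -0.0019 to 0.38. *Crem*, *Creb1*, *Atf1* and *Cebpb* differed by at most 0.03 between the days, with 95% CI that reach 0.17 to 0.25 in either direction.

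**Figure D3:**
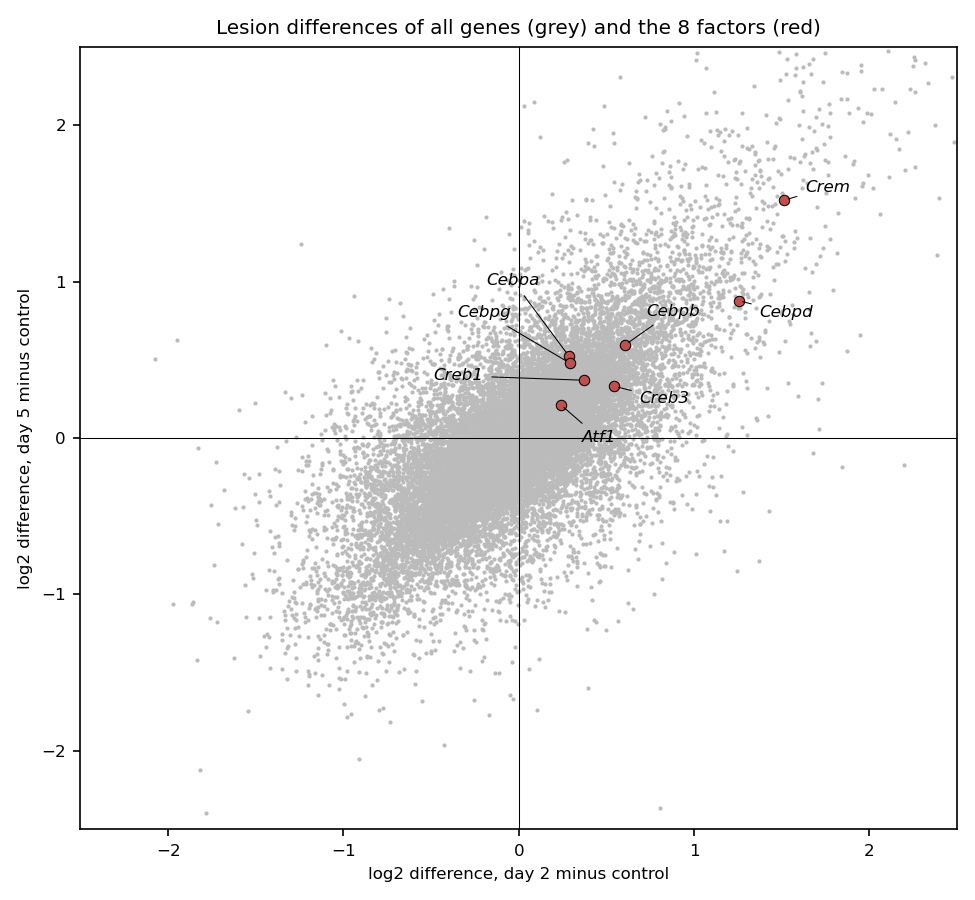
Log2 difference from control at day 2 (x axis) against day 5 (y axis) for all 27398 genes by their brightest probe (grey) and for the 8 members (red), of which *Crem* and *Cebpd* lie farthest out. The axes end at 2.5, and 109 genes lie beyond them.

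The lesion was also tested within each genotype. In WT, 4 members were higher at day 2 (5.23% of genes), *Crem*, *Creb3*, *Cebpb* and *Cebpd*, and 6 at day 5 (6.41%), these 4 with *Cebpa* and *Cebpg*. In KO, 5 were higher at day 2 (5.5%) and 5 at day 5 (6.06%), in both cases the same 4 genes with *Creb1*. By brightest probe, all 32 differences of a member from the control of its own genotype were above 0. Both days of a genotype share its controls, and the share over all genes was not computed. Other probes were not all above 0, and the dimmest *Cebpg* probe gave -0.12 in WT and -0.29 in KO at day 2. The rises of *Crem* were 1.48 and 1.48 in WT and 1.55 and 1.57 in KO at days 2 and 5. Those of *Cebpd* were 1.18 and 0.93 in WT and 1.32 and 0.83 in KO. That *Cebpa* and *Cebpg* passed at day 5 in WT and not in KO, and *Creb1* in KO and not in WT, does not show a difference between genotypes, which the next tests address.

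Deletion of *Nfil3* was compared with WT at each time point, which asks whether the factors that can use its sites changed in its absence. None of the 8 members passed in the limma F test of KO minus WT over the 3 time points (0, against 0.0073% of genes). None had an unadjusted p under 0.05 (2.245% of genes did), the smallest being 0.258. In the F test of the time by genotype interaction none passed either (0, against 0% of genes). Again none had an unadjusted p under 0.05 (2.124% of genes did), the smallest being 0.164. With 8 members, counts of 0 are near these shares. In the 24 single comparisons by brightest probe, KO minus WT ranged up to 0.30 in size, 17 were below 0, and 0 had an unadjusted p under 0.05. For these counts the share over all genes was not computed. The largest was *Cebpd* at day 5, at -0.30 (95% CI -0.73 to 0.12), and *Cebpg* at day 5 had the smallest unadjusted p (0.0672), at -0.25 (95% CI -0.52 to 0.02). At day 5 the second *Cebpg* probe gave -0.26 (95% CI -0.52 to -0.0032), with an unadjusted limma p of 0.0475 that did not pass after adjustment. The dimmest *Cebpg* probe gave 0.03 (95% CI -0.29 to 0.35).

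The intervals show how precise these comparisons were. They reached 0.20 to 0.42 to either side on the log2 scale, narrowest for *Creb3* and widest for *Cebpd*. For *Creb1*, KO minus WT was 0.01 (95% CI -0.23 to 0.26) in control, 0.10 (-0.14 to 0.35) at day 2 and 0.12 (-0.13 to 0.36) at day 5. For *Crem* it was -0.17 (-0.43 to 0.08), -0.10 (-0.35 to 0.16) and -0.08 (-0.34 to 0.17). Averaged over the 3 time points, *Crem* differed by -0.12 (95% CI -0.26 to 0.03), while its lesion differences were above 1.4 in both genotypes.

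**Figure D4:**
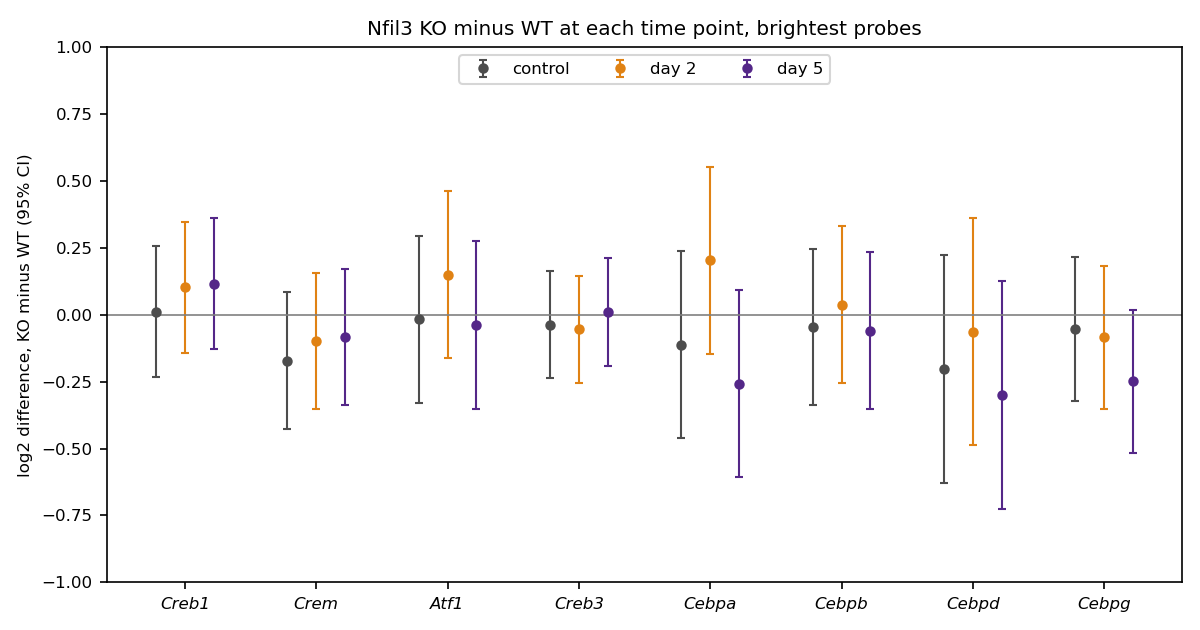
Log2 difference of KO minus WT for the brightest probe of each gene in control DRGs (grey), at day 2 (orange) and at day 5 (purple), with 95% CI from the limma fit. All 24 intervals include 0, and the point farthest from it is *Cebpd* at day 5 (-0.30).

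Relatives and partners of the 8 genes were read from lists. Of 13 further CREB family members and coactivators, 12 were measured and 4 passed the lesion F test (26.2% of all genes did). By the mean of both days, 2 were higher, *Creb3l4* (0.90 and 1.08 at days 2 and 5) and *Creb5* (0.14 and 0.29), and 2 were lower, *Creb3l2* (-0.28 and 0.11) and *Atf7* (-0.28 and -0.14). The coactivator genes *Crebbp*, *Ep300*, *Crtc2* and *Crtc3* did not pass, and the list medians were -0.20 and -0.10. Of 3 other C/EBP genes 2 were measured, and *Ddit3*, which encodes the stress factor CHOP, rose by 0.48 and 0.84, while *Cebpz* did not pass (0.12 and 0.26).

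Genes that are known to carry cAMP response elements moved in both directions. Of 20 listed, 18 were measured and 11 passed the lesion F test (26.2% of all genes did), 9 higher and 2 lower. Their medians were 0.61 at day 2 and 0.36 at day 5, against -0.02 and -0.03 over all genes. The 4 with the smallest p were *Adcyap1*, which encodes the neuropeptide PACAP (2.06 and 1.43), the phosphatase gene *Dusp1* (1.17 and 0.93), the neurotrophin gene *Bdnf* (1.10 and 0.44) and *Btg2* (0.61 and 0.90). The 2 that fell were *Ppargc1a* (-0.54 and -0.27) and *Sst*, which encodes somatostatin (-0.91 and -1.18). The immediate early genes *Fos* (0.99 and 0.74), *Junb* (0.83 and 0.52), *Arc* (0.65 and 0.81) and *Nr4a2* (0.62 and 0.37) passed and were higher. *Egr1*, *Nr4a1*, *Fosb* and *Nr4a3* did not pass, and *Vip* did not clear the background mark in a single sample (0 of 24).

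Of 18 genes known as C/EBP targets, all were measured and 9 passed the lesion F test (26.2% of all genes did), all higher. Their medians were 0.66 and 0.80, against -0.02 and -0.03 over all genes. The 4 with the smallest p were the cytokine gene *Il6* (2.67 and 2.03), the serum amyloid gene *Saa3* (2.99 and 0.72), *Socs3*, a feedback inhibitor of cytokine signals (1.50 and 1.29), and *Cd14*, a receptor for bacterial products on myeloid cells (0.53 and 1.18). *Il6* was well above background in 20 and *Saa3* in 18 of 24 samples. The neutrophil genes on this list did not pass, with wide SEs of 0.44 to 0.55. Their differences were 0.82 and 0.94 (*S100a8*), 0.585 and 0.97 (*S100a9*) and 0.74 and 0.69 (*Lcn2*). In none of the 4 lists did a gene pass in the test of KO minus WT or of the interaction. For KO minus WT, 0 had an unadjusted p under 0.05 in the F test (2.245% of all genes did). Whether the factors act on these genes was not measured.

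**Figure D5:**
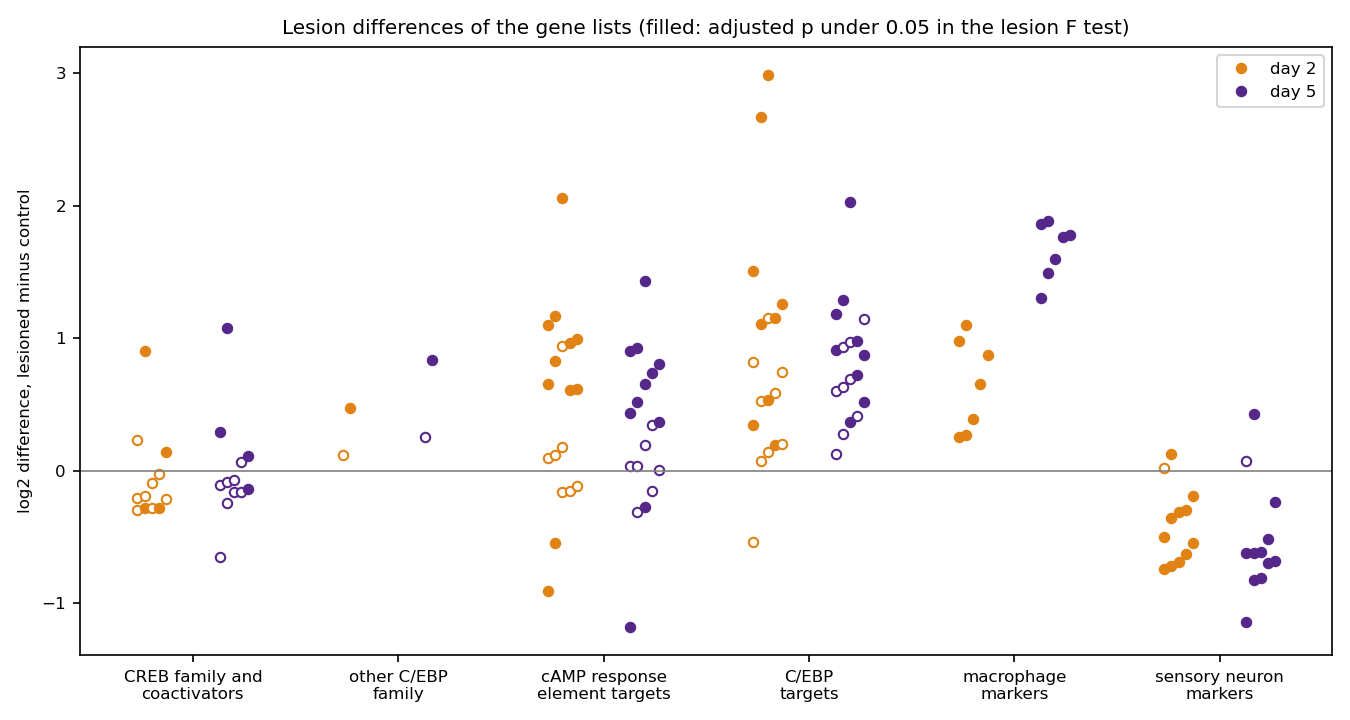
Log2 difference from control at day 2 (orange) and day 5 (purple) for the genes of 4 lists around the CREB and C/EBP factors and of 2 cell type marker lists, 1 point per gene. Filled points passed the lesion F test. The 7 macrophage markers are all above 0, from 0.26 to 1.10 at day 2 and from 1.31 to 1.89 at day 5.

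Cell type markers moved with the lesion as well. All 7 measured macrophage markers passed the lesion F test (26.2% of all genes did) and were higher, with medians of 0.66 at day 2 and 1.76 at day 5. Their summed linear intensity ranged from 1111 to 2178 in the 8 controls, from 1723 to 3346 at day 2 and from 4026 to 6293 at day 5. Of 12 sensory neuron markers, 10 were lower and 1, *Tubb3*, was higher, with medians of -0.43 and -0.62, and their summed intensity ranged from 610700 to 736500 in controls and from 460200 to 597500 at day 5. None of the 4 measured neutrophil markers passed, although their medians were 0.70 at day 2 and 0.85 at day 5. Their SEs were wide (0.43 to 0.49), so this does not show that they stayed level. Among adipocyte markers 3 of 4 measured passed and were higher. Like the macrophage markers, *Cebpa* and *Cebpg* had the larger of their differences at day 5 (0.52 and 0.48), although their day 5 and day 2 values did not pass as different. The part of macrophages and of adipose tissue in the rise of the C/EBP genes was not tested.

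The genes whose pattern was most like that of each member were found by Pearson correlation over the 24 samples, among 14484 genes well above background in all of them. These values describe patterns, carry no test, and rest on samples that share arrays and the same lesion contrast. *Crem* was tracked most closely, by *Rras2* (r = 0.994), *Flrt3* (0.991) and *Nkain1* (0.988). *Creb3* was nearest to *Cldnd1* (0.948), *Slc29a2* (0.928) and *Tcf19* (0.926), and *Creb1* to *Kpna2*, *Eri1* and *Zfp68* (each 0.905). *Cebpb* was nearest to *Ccl9* (0.927), *Nono* (0.927) and *Mina* (0.916), and *Cebpd* to *Mcm3* (0.948) and 2 transcripts that the array names by a database entry only. *Cebpg* was nearest to such a transcript, to *Tsc22d1* (0.911) and to *Atf4* (0.911), which encodes its known dimer partner. *Cebpa* was nearest to *Clec4a3* (0.862), *Atp6v0e* (0.850) and *Hcls1* (0.847), of which *Clec4a3* and *Hcls1* are known from myeloid cells. Among the members themselves the closest were *Cebpb* and *Cebpd* (0.908), followed by *Crem* with *Cebpb* (0.892) and with *Cebpd* (0.891), and the least alike were *Atf1* and *Creb3* (0.245).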

How the data were processed

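RNA was hybridized to 12 Agilent arrays with a different sample in each channel. The authors deposited Feature Extraction 10.7.3.1 output with foreground and background intensity per spot, not normalized. Following the study's methods, background was corrected by the Edwards method (mean foreground, median background). Values were then put on a log2 scale and the 24 channels quantile normalized, after which outlier spots were left out and spots of a probe averaged. R 4.3.3 and limma 3.58.1 were used, with 1 mean per group, eBayes and Benjamini-Hochberg adjustment over 41174 probes (threshold 0.05). The processed signals that the authors deposited, also intensity values, served as an alternative. Outlier, saturation and background marks were those in the deposited files. The members, lists and tests were chosen with earlier results of these data known. The genes named were the members and *Nfil3*, up to 4 genes of each list by lesion F p, and the 3 genes most like each called member. Other genes were chosen after their values were seen. The number of arrays limits precision. The methods call the 4 samples per group independent replicates, and the labels do not say which animals they came from, so p-values measure the spread between these samples. Scripts were tested on simulated data.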

Additional observations from a re-analysis of the deposited data

Results flagged for a closer look

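Of the 48 groups of 4 samples (8 genes in 6 groups), 1 had a sample whose distance from the others exceeded the 95% critical value of Dixon's test, and chance alone flags about 1 in 20 groups. This was *Creb1* in KO day 2 replicate 2, which measured 8.54 while the other 3 samples lay between 8.29 and 8.33. Without this sample the day 2 difference of *Creb1* stayed past the threshold.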

How the results depend on the processing

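The 40 alternatives, 24 of which left out 1 sample each, covered background correction, foreground, normalization, outlier spots, a filter on dim probes, averaged probes, dye, slide, array, array partner, replicate number and the eBayes settings. A further alternative, for the sample whose labels disagree, repeats the fit without KO control replicate 4 and so counts it again. The removal of the 4 controls that shared an array with a lesioned sample, and the largest KO minus WT difference, were added after seeing the data. No lesion difference of a member changed sign. *Creb1*, *Crem*, *Creb3*, *Cebpb* and *Cebpd* passed at both days under all 40, and *Cebpg* at day 5. With members called in the lesion F test at 7, the alternatives gave 6 to 8, at day 2 they gave 5 to 8 against 6, and at day 5 always 7. With 1 sample left out these were 7, 5 to 7 and 7. The call of day 5 against day 2, 0 in the fit reported, was 1 without background correction and 1 with normexp, *Creb3* in both (-0.21), and the cause was not tested. With the probes of a gene averaged, *Cebpa* at day 5 (0.49, adjusted p = 0.083) and *Cebpg* at day 2 (0.08, adjusted p = 0.548) were no longer past the threshold, and *Atf1* passed at day 2 (0.39) and day 5 (0.21). *Cebpa* at day 2 passed without background correction (0.21, adjusted p = 0.0365), with processed signals (0.38, adjusted p = 0.0303), without KO day 2 replicate 2 and without WT day 2 replicate 4. *Atf1* at day 2 also passed with processed signals (0.29, adjusted p = 0.0281) and with the slide as a block (0.30, adjusted p = 0.0201). The count for KO minus WT and for the interaction was 0 under all 40, and the largest KO minus WT difference, 0.30, ranged from 0.21 to 0.42 (0.25 to 0.38 with 1 sample left out). Leaving out KO control replicate 4, whose labels disagree, changed only the day 2 call of *Cebpg* (0.27, adjusted p = 0.0531). With the replicate number as a block (replicate block), 7, 6 and 7 members were called in the lesion F test, at day 2 and at day 5, and it changed no call. The deviations of samples with the same number correlated between -0.59 and 0.59 over 60 pairs (median 0.06). These pairs include samples of different genotype and day. The median therefore cannot tell whether a control and a lesioned sample came from the same mouse. Samples that shared an array deviated together (median correlation 0.43), and the fit reported does not include the array. With the array as a random block (consensus correlation 0.27) the counts of members were also 7, 6 and 7, the largest KO minus WT difference was 0.26, and no call changed.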
